A study of Mus musculus with 10 samples.

Results

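Adipocyte and sebaceous lipid storage genes were followed in the skin of mice with the MC903 dermatitis model. The genes were chosen by name, as 35 symbols for fat cell and sebaceous gland lipid synthesis, lipid droplets and hormones, and all 35 were found among the 19175 genes of the table. Of the 10 samples, 5 were skin of C57BL/6 mice labelled as a basophil VAMP7 conditional knockout (CKO). These were set against 5 skin samples of the same strain labelled VAMP7 Flox, with WT in their treatment field. MC903, a form of vitamin D also called calcipotriol, inflames the skin it is put on. The series is titled for that model and no untreated skin was analysed here, so what MC903 does to these genes was not measured. The labels name no Cre driver, age, sex or time of sampling. They do not say that the samples came from separate animals, and p-values therefore measure only the spread among these 10 samples, which may be technical.

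Skin holds lipid in dermal fat cells and in the sebaceous glands of hair follicles. Fat cells take up fatty acids, bind glycerol to them as triglyceride and keep it in droplets coated with perilipins and CIDE proteins, and lipases release the fatty acids again. The nuclear receptor PPARγ drives much of this programme. Sebocytes, the gland cells, fill with wax esters, triglycerides and sterol esters and then burst to release sebum. Both cell types share the enzymes that build fatty acids from acetyl-CoA.

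None of the 31 members that could be tested passed the test for a difference between CKO and Flox skin, and their median log2 fold change was -0.024. Over all 13186 genes tested the median was -0.027, and 0.106% of genes passed (limma, adjusted p under 0.05, 0.0455% higher and 0.0607% lower in CKO). The test was limma-trend on log2(FPKM + 1), where FPKM is a read level scaled to transcript length and library total. Fold changes are CKO over Flox of these values, and the added 1 makes those of low genes too small. The 5 CKO and 5 Flox libraries overlapped for every one of the 35 members, while 4.23% of all genes tested had groups without overlap. At an unadjusted p under 0.05 there were 6 of the 31 members, 1 with a positive and 5 with a negative log2 fold change, beside 15.1% of all genes tested. That count was 2 without CKO replicate 1, without CKO replicate 4 or without Flox replicate 2, and 3 without Flox replicate 1 or Flox replicate 3. It was 5 without CKO replicate 3, CKO replicate 5 or Flox replicate 4, and 7 without CKO replicate 2 or Flox replicate 5. The 95% interval of the log2 fold change lay between -1 and 1 for 29 of the 31 members, the exceptions being Thrsp and Far2. For 22 of them it also lay within a 1.5-fold change in either direction.

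Vamp7 itself was at 17.3 to 19.2 FPKM in CKO libraries and 18.1 to 22.5 FPKM in Flox libraries, with a log2 fold change of -0.088 (SE 0.060, limma adjusted p = 0.530). In whole skin most cells are not basophils, so this level does not check the labels. The libraries summed to 525369 to 581022 FPKM, and the number of reads is unknown. Summed skeletal muscle markers were above every Flox library in CKO replicates 1, 3, 4 and 5, and were highest in CKO replicate 1. The 15 markers summed to 1798 FPKM there, 466 to 1159 FPKM in the other CKO libraries and 311 to 543 FPKM in Flox libraries. The CKO minimum, in replicate 2, was inside the range of Flox. None of the 15 was at 0 in any library.

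Markers of fat cells and of the sebaceous gland were found at differing levels. The fat cell hormone gene Adipoq, the droplet genes Plin1 and Cidec and the fat cell products Cfd and Car3 were each above 5 FPKM in every library. Lep, also a fat cell hormone gene, was at 1.40 to 3.74 FPKM in CKO libraries and 2.30 to 5.98 FPKM in Flox libraries. Adrb3, the adrenergic receptor of mature fat cells, was listed at 0.02 to 0.08 FPKM in CKO libraries and 0 to 0.06 FPKM in Flox libraries. The brown fat uncoupler Ucp1 was also near 0, at 0.03 to 0.09 FPKM in CKO and 0 to 0.12 FPKM in Flox. Of the sebaceous markers, Mgst1 was above 100 FPKM and Far2, Krt79 and Elovl3 above 10 FPKM in all libraries, while Mc5r, the melanocortin receptor of the gland, spanned 0.66 to 1.11 FPKM in CKO and 0.64 to 1.31 FPKM in Flox. Awat2, another sebaceous marker, spanned 1.15 to 3.38 FPKM in CKO and 1.71 to 4.82 FPKM in Flox. Whole skin was measured, so fewer cells of a type and less RNA per cell cannot be told apart.

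The mean levels of the members over the 10 libraries covered a wide range. Fabp4 was highest at 558 FPKM, followed by Scd1 at 333 FPKM, Mgst1 at 155 FPKM and Plin2 at 119 FPKM. These 4 did not overlap in level with the next member, Dgat2, at 61.5 FPKM. The 31 tested members were above 1 FPKM in every library. Plin5, Pnpla3, Adrb3 and Mc5r did not reach 1 FPKM in 5 libraries and were left out of the test. With no filter, their log2 fold changes were 0.19 (SE 0.099), 0.071 (SE 0.12), 0.036 (SE 0.021) and -0.031 (SE 0.092), and none passed (limma adjusted p of at least 0.468).

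**Figure D1:**
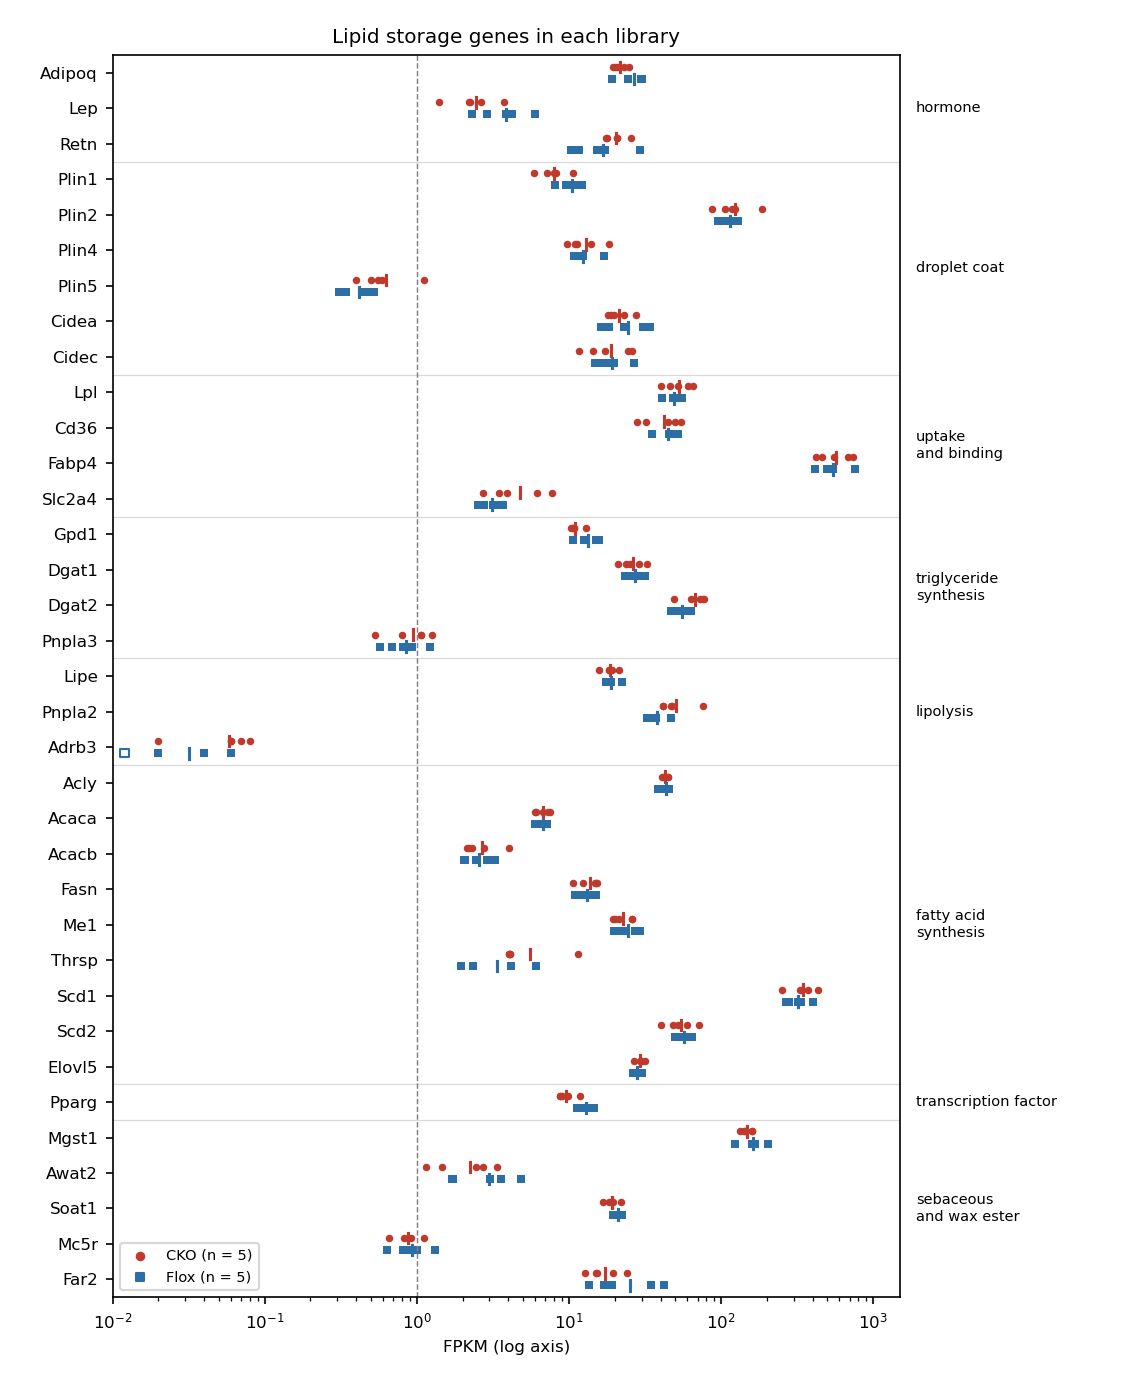
FPKM of the 35 lipid genes in each library on a log axis, with genes grouped by role, CKO circles above Flox squares and a vertical tick at each group mean (n = 5 each). The open square for Adrb3 marks the Flox library listed at 0, the dashed line is 1 FPKM, and the CKO and Flox points overlap for every gene.

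Pparg, which encodes PPARγ, had the lowest p of the members. It was at 8.99, 9.85, 8.75, 8.68 and 11.9 FPKM in CKO libraries 1 to 5 and at 12.95, 14.7, 13.2, 11.3 and 12.4 FPKM in Flox libraries 1 to 5. CKO replicate 5 lay above Flox replicate 4, and every other CKO library lay below all Flox libraries. The means were 9.63 ± 1.34 FPKM in CKO and 12.9 ± 1.24 FPKM in Flox (SD, n = 5 each), and the log2 fold change was -0.39 (SE 0.090). Its 95% interval was -0.59 to -0.19, and it did not pass over all genes (limma adjusted p = 0.117). Without CKO replicate 1 it was -0.37 (SE 0.096, limma adjusted p = 0.170).

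The promoters of 4 members are shown as RefSeq gives them on GRCm38.p6, read 5′ to 3′ on the gene's strand, from 250 bases before to 50 bases after an annotated start. They are Pparg, as the member of lowest p, with 3 annotated starts that the table does not tell apart, Adipoq, as the hormone that defines fat cells, Far2, as a sebaceous gland enzyme that varied widely, and Fasn, as the fatty acid synthase. Capitals mark matches on either strand to the hexamer AGGTCA of nuclear receptors, the E-box CACGTG, the CCAAT box CCAAT, the TATA box TATAAA and the GC box GGGCGG.
Pparg chr6:115360894-115361193 (+ strand): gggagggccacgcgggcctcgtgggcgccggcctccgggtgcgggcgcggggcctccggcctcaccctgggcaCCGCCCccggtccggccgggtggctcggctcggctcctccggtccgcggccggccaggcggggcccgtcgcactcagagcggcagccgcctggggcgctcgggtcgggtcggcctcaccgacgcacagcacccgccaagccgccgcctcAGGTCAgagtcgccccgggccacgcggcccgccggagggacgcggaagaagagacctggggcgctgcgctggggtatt
Pparg chr6:115362099-115362398 (+ strand): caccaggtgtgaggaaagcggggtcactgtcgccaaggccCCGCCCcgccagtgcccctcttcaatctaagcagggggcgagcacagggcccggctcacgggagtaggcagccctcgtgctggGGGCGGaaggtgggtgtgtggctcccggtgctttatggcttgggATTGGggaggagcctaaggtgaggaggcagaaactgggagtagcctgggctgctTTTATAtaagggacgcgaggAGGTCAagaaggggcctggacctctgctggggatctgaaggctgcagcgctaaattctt
Pparg chr6:115421816-115422115 (+ strand): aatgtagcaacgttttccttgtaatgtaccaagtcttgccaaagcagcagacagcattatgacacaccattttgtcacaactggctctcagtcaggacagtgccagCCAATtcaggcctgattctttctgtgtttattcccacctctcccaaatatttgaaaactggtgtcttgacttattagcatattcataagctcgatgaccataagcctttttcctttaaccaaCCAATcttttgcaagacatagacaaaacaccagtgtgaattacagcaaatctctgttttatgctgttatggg
Adipoq chr16:23146286-23146585 (+ strand): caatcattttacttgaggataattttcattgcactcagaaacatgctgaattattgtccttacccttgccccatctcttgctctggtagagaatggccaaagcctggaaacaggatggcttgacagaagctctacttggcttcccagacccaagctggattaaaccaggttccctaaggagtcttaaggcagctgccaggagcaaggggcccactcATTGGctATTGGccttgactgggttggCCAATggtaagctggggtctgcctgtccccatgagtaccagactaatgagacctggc
Far2 chr6:148047166-148047465 (+ strand): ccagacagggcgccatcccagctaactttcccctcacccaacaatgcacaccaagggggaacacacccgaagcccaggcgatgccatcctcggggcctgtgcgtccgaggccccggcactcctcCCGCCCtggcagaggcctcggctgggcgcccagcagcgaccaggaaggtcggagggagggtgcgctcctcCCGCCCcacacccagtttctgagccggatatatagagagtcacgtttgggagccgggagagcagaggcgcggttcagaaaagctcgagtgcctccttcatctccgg
Fasn chr11:120824498-120824797 (- strand): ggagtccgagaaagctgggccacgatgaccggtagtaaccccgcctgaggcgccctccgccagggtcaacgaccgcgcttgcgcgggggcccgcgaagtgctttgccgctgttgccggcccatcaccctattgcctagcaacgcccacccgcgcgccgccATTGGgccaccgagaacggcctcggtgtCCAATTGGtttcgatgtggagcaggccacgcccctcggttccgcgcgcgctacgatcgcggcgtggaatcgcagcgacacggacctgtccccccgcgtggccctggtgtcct

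Windows on chr18 were left out of the search. RefSeq windows on the other chromosomes were found for 24 of the 35 members, 32 windows in all. The direct repeat 1 motif, which PPARγ binds with its partner RXR, holds the hexamer 2 times with 1 base between. It was in 0 of these 32 and in 0.0396% of all 32851 windows searched, of the same length. The hexamer alone was in 8 of the member windows, including Pparg, Plin2, Cd36 and Acly, and in 16.3% of all windows. The CCAAT box was in 17 of the 32 and in 37.4% of all windows, the GC box in 16 and 35.7%, the E-box in 3 and 7.15%, and the TATA box in 2 and 13.6%. In the windows printed, Adipoq and Fasn carried 3 CCAAT matches each, and Far2 carried GC boxes without a CCAAT match. The matches are letters in a window and show no binding. The E-box reads the same on both strands, and the windows of Plin5 overlap each other.

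Hormone genes of fat cells differed in sign. Adipoq, which encodes adiponectin, was at 19.95, 24.7, 22.9, 20.8 and 19.4 FPKM in CKO libraries 1 to 5 and at 29.9, 30.1, 30.1, 24.6 and 19.3 FPKM in Flox libraries 1 to 5. Flox replicates 1 to 3 lay above every CKO library, but Flox replicate 5 was the lowest of all 10. The log2 fold change was -0.29 (SE 0.12), with an interval of -0.56 to -0.016 (limma adjusted p = 0.309). Lep, which encodes the satiety hormone leptin, was at 2.21, 1.40, 2.23, 2.66 and 3.74 FPKM in CKO and at 3.86, 5.98, 4.25, 2.30 and 2.90 FPKM in Flox. The highest CKO library exceeded 2 Flox libraries, and the log2 fold change was -0.48 (SE 0.22, limma adjusted p = 0.328). Retn, which encodes resistin, was at 20.4 ± 3.22 FPKM in CKO and 16.7 ± 7.52 FPKM in Flox (SD, n = 5 each), and Flox replicate 3 was highest of all at 29.2 FPKM. Its log2 fold change was 0.35 (SE 0.23), and it was 0.57 (SE 0.16) without Flox replicate 3 and 0.21 (SE 0.22) without Flox replicate 5.

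Of the 5 tested droplet coat genes, 2 had a positive and 3 a negative log2 fold change, and none passed. Plin1, the perilipin of the large fat cell droplet, was at 5.91, 7.97, 8.19, 7.16 and 10.6 FPKM in CKO and at 9.62, 12.2, 11.8, 10.7 and 8.04 FPKM in Flox. Its log2 fold change was -0.36 (SE 0.14, limma adjusted p = 0.272), and -0.27 (SE 0.13) without CKO replicate 1, its lowest library. Plin2, the perilipin found on droplets of most cells, spanned 86.7 to 184 FPKM in CKO and 95.1 to 129.8 FPKM in Flox, with CKO replicate 2 the highest. Plin4 spanned 9.70 to 18.4 FPKM in CKO and 10.8 to 16.99 FPKM in Flox. Cidec and Cidea, which fuse and enlarge droplets, differed by -0.066 (SE 0.22) and -0.15 (SE 0.20) in log2 fold change. Cidec was highest in Flox replicate 3, at 27.0 FPKM, and lowest in CKO replicate 4, at 11.7 FPKM. Cidea was highest in Flox replicate 2, at 33.9 FPKM, and lowest in Flox replicate 5, at 16.4 FPKM. The interval of Plin4, Plin2, Cidea and Cidec included 0 in each case. Plin5, the perilipin of tissues that burn fat, was at 1.11 FPKM in CKO replicate 1 and at 0.31 to 0.59 FPKM in the other 9 libraries.

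None of the 4 genes of uptake and binding passed, and each overlapped between CKO and Flox. Fabp4, the fatty acid binding protein of fat cells and vessels, was at 741, 682, 461, 418 and 550.3 FPKM in CKO and at 500.4, 542, 756, 516 and 414 FPKM in Flox. The log2 fold change was 0.058 (SE 0.19), with an interval of -0.36 to 0.48. Lpl, the lipase that frees fatty acids from blood lipoproteins, spanned 40.3 to 65.5 FPKM in CKO and 41.1 to 55.2 FPKM in Flox. Cd36, a fatty acid transporter, spanned 28.2 to 54.5 FPKM in CKO and 35.2 to 51.7 FPKM in Flox. Slc2a4, the insulin-responsive glucose transporter of fat and muscle, was at 7.71, 2.71, 3.46, 6.19 and 3.90 FPKM in CKO and at 2.75, 3.48, 2.54, 3.19 and 3.66 FPKM in Flox. CKO replicates 1, 4 and 5 were above all Flox libraries, and their muscle marker sums were 1798, 1159 and 599.7 FPKM. CKO replicates 2 and 3 lay within the Flox range of Slc2a4, and their muscle marker sums were 466 and 613 FPKM. The log2 fold change of 0.43 (SE 0.21) became 0.26 (SE 0.17) without CKO replicate 1.

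Triglyceride synthesis genes showed small differences of either sign. Gpd1, which makes the glycerol phosphate backbone, was at 10.7, 10.8, 10.5, 10.4 and 12.9 FPKM in CKO and at 12.5, 15.7, 15.0, 12.5 and 10.6 FPKM in Flox (log2 fold change -0.24, SE 0.10, limma adjusted p = 0.309). Dgat2, an acyltransferase of the last step, was at 77.0, 48.95, 63.2, 76.4 and 72.9 FPKM in CKO and at 55.4, 57.7, 53.0, 46.6 and 63.8 FPKM in Flox. Its log2 fold change was 0.28 (SE 0.13), with an interval of -0.0057 to 0.56 (limma adjusted p = 0.341). Dgat1, the other enzyme of that step, was at 26.3 ± 4.53 FPKM in CKO and 27.1 ± 3.12 FPKM in Flox. Pnpla3, a droplet protein related to the fat lipase, spanned 0.53 to 1.26 FPKM in CKO and 0.57 to 1.23 FPKM in Flox.

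Of the lipolysis genes, Pnpla2, which encodes the first lipase of triglyceride breakdown, was at 75.8, 47.8, 41.6, 41.6 and 47.1 FPKM in CKO and at 37.0, 35.3, 47.1, 37.4 and 32.8 FPKM in Flox. CKO replicate 1 stood far above the rest, and Flox replicate 3 lay within the CKO range. The log2 fold change was 0.39 (SE 0.16, limma adjusted p = 0.293). It moved to 0.23 (SE 0.096, limma adjusted p = 0.328) without CKO replicate 1. Lipe, the hormone-sensitive lipase, spanned 15.7 to 21.4 FPKM in CKO and 17.5 to 22.4 FPKM in Flox, with a log2 fold change of -0.024 (SE 0.086).

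Acly, Elovl5 and Acaca, all of fatty acid synthesis, had the lowest ratios of highest to lowest library of the members, 1.19, 1.21 and 1.25. Acly, which makes cytosolic acetyl-CoA, was at 43.5, 41.8, 41.2, 44.5 and 44.5 FPKM in CKO and at 45.7, 44.7, 42.9, 38.6 and 45.8 FPKM in Flox. Its interval was -0.13 to 0.11 on the log2 scale. The elongase Elovl5 spanned 26.8 to 31.7 FPKM in CKO and 26.2 to 30.1 FPKM in Flox, with an interval of -0.050 to 0.19 on the log2 scale. Acaca and Acacb, the acetyl-CoA carboxylases, differed by -0.014 (SE 0.069) and 0.043 (SE 0.14) on the log2 scale. Fasn, the fatty acid synthase, was at 13.7 ± 2.06 FPKM in CKO and 13.2 ± 1.67 FPKM in Flox (SD, n = 5 each). Me1, which supplies NADPH, was at 22.6 ± 3.25 FPKM in CKO and 24.3 ± 3.84 FPKM in Flox. The desaturases Scd1 and Scd2 differed by 0.11 (SE 0.15) and -0.083 (SE 0.14), so that 8 of the 9 genes of fatty acid synthesis were within 0.25 of no change.

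The ninth was Thrsp, a nuclear protein that promotes lipogenesis, which varied most of the 31 tested members. It was at 4.01, 4.08, 4.10, 11.5 and 4.04 FPKM in CKO and at 2.33, 6.12, 4.19, 1.96 and 2.33 FPKM in Flox. In CKO, 4 libraries were within 0.1 FPKM of each other and CKO replicate 4 stood alone. The log2 fold change of 0.55 (SE 0.31) had an interval of -0.14 to 1.24 (limma adjusted p = 0.437), and it was 0.29 (SE 0.24) without CKO replicate 4.

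**Figure D2:**
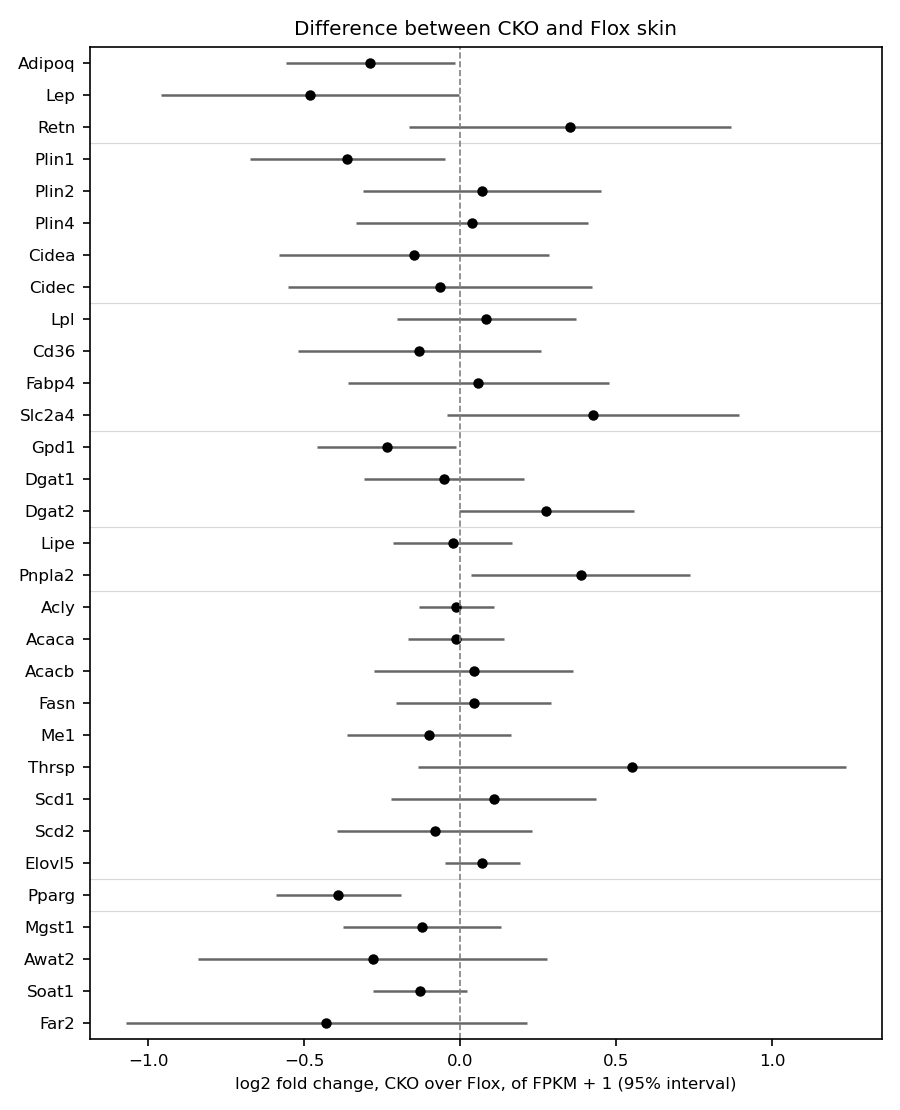
Log2 fold change of FPKM + 1, CKO over Flox, for the 31 tested lipid genes in order of role, with points for the estimates and bars for 95% intervals (n = 5 each). Pparg lies at -0.39, Acly and Elovl5 have the shortest bars, and Thrsp and Far2 the longest.

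Log2 fold changes of the 4 tested sebaceous and wax ester members were all negative (median -0.21), and none passed (limma adjusted p of 0.404 to 0.658). Far2, a reductase that makes the fatty alcohols of wax esters, was at 19.5, 15.4, 15.1, 12.7 and 23.9 FPKM in CKO libraries 1 to 5 and at 34.4, 42.0, 17.1, 19.2 and 13.6 FPKM in Flox libraries 1 to 5. Flox replicates 1 and 2 were above every other library, and the other 3 Flox libraries lay within the CKO range. Its log2 fold change was -0.43 (SE 0.29), with an interval of -1.07 to 0.21, and -0.22 (SE 0.25) without Flox replicate 2. Awat2, a wax synthase, was at 3.38, 1.15, 1.46, 2.46 and 2.72 FPKM in CKO and at 3.56, 4.82, 1.71, 3.04 and 1.72 FPKM in Flox. Its log2 fold change of -0.28 (SE 0.25) was -0.15 (SE 0.25) without CKO replicate 2 and -0.13 (SE 0.24) without Flox replicate 2. Mgst1, a glutathione transferase rich in sebaceous glands, was at 148 ± 11.8 FPKM in CKO and 163 ± 28.6 FPKM in Flox (SD, n = 5 each). Soat1, which esterifies cholesterol, spanned 16.8 to 22.1 FPKM in CKO and 19.6 to 22.4 FPKM in Flox, with a log2 fold change of -0.13 (SE 0.068).

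**Figure D3:**
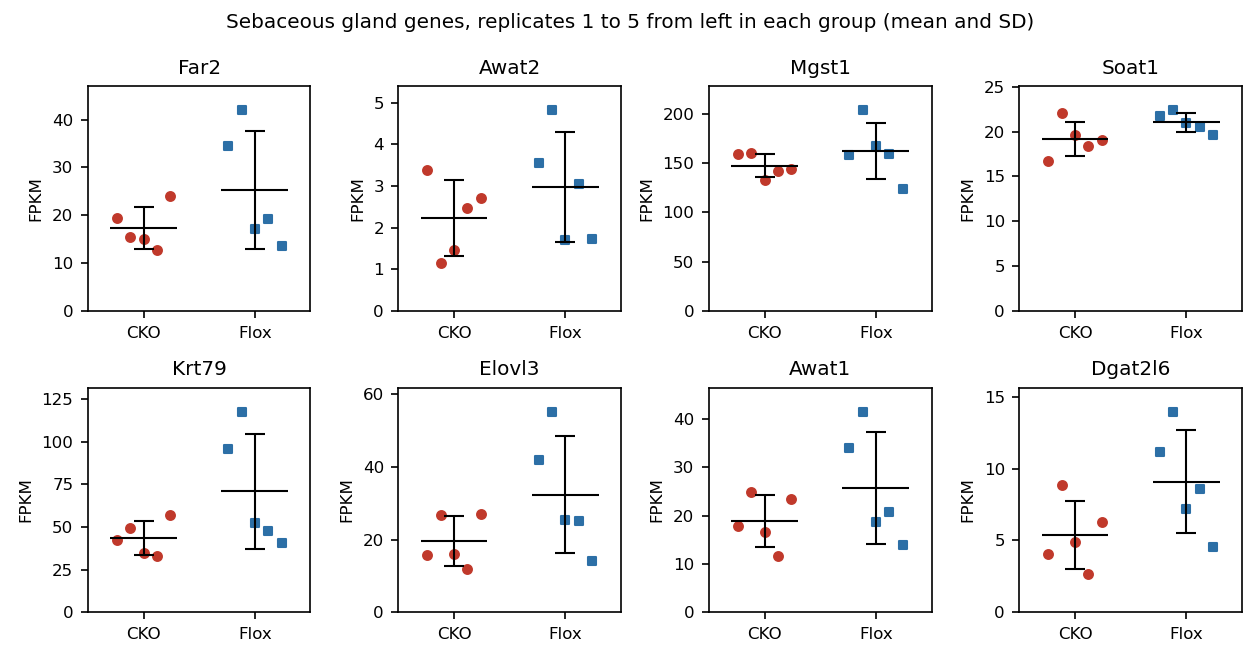
FPKM of 4 sebaceous members (Far2, Awat2, Mgst1 and Soat1) and of 4 other sebaceous gland genes (Krt79, Elovl3, Awat1 and Dgat2l6), with CKO left of Flox, replicates 1 to 5 from left in each group, and lines and bars for mean and SD (n = 5 each). Flox replicates 1 and 2 are the highest for Far2, Krt79, Elovl3, Awat1 and Dgat2l6, and the other 3 Flox libraries overlap CKO.

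A list of 27 further sebaceous gland genes held 26 genes of the table, of which 23 were tested. There 0 passed, 21 had a negative log2 fold change and the median was -0.25, beside -0.027 over all genes. The groups did not overlap for 2 of the 26, beside 4.23% of all genes tested. One was Far1, the other reductase of wax ester synthesis, at 20.8 ± 2.29 FPKM in CKO and 27.4 ± 2.84 FPKM in Flox, with a log2 fold change of -0.38 (SE 0.088, limma adjusted p = 0.117). The other was Faah, a hydrolase of fatty acid amides, at 2.15 ± 0.264 FPKM in CKO and 3.07 ± 0.406 FPKM in Flox, with a log2 fold change of -0.37 (SE 0.084, limma adjusted p = 0.116). Aldh3a2, which oxidises fatty aldehydes, had a log2 fold change of -0.18 (SE 0.051). Flox replicate 2 was the highest library for 16 of these 26 genes.

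The spread of the members between libraries exceeded that of most genes. The median coefficient of variation within groups was 18.1% for the 31 tested members and 10.0% for all genes tested, whose middle range was 6.78% to 15.9%. It was 5.50% for Acly and 5.76% for Elovl5, and it reached 43.3% for Far2, 43.6% for Awat2 and 59.6% for Thrsp. Of the 35 members, 11 were highest in Flox replicate 2, 10 in CKO replicate 1 and 5 in Flox replicate 3. The lowest value was in CKO replicate 4 for 9 members, in Flox replicate 5 for 7 and in CKO replicate 2 for 6. Libraries of the same genotype were therefore at both ends. Plin4, Fabp4, Retn and Cidec were all higher in CKO replicate 1 and Flox replicate 3 than in CKO replicates 3 and 4 and Flox replicate 5.

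**Figure D4:**
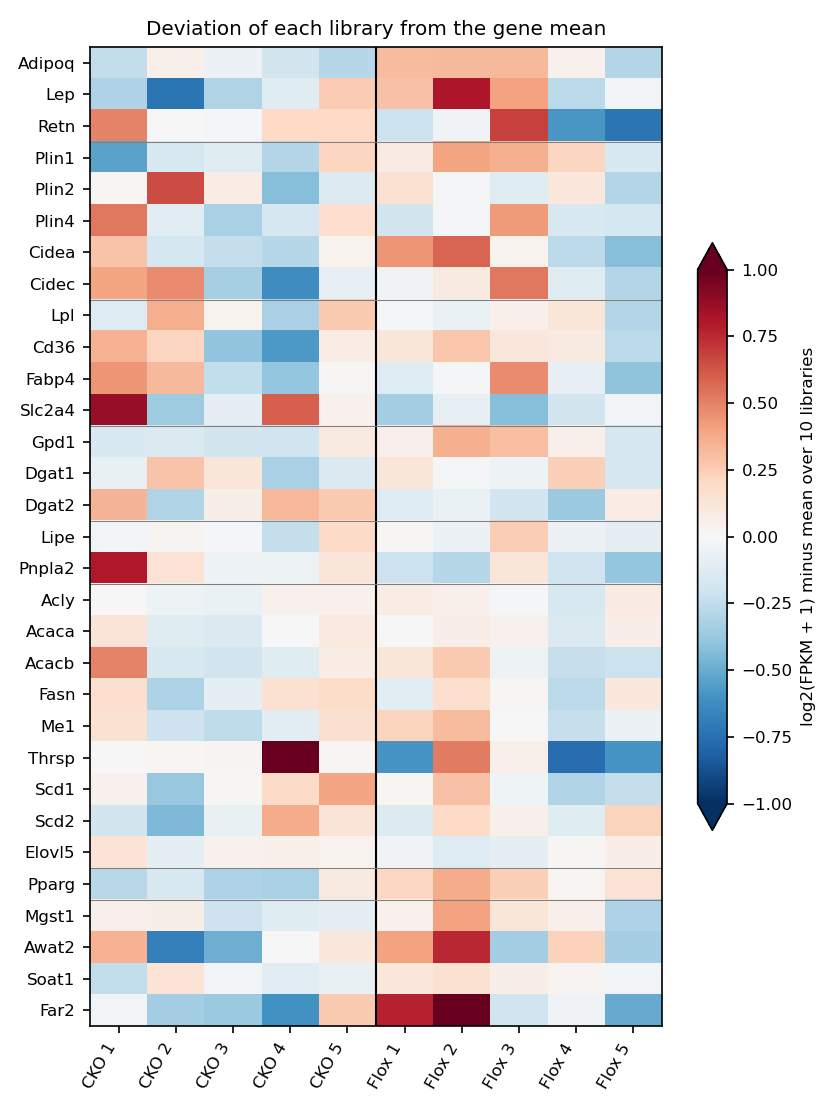
Deviation of log2(FPKM + 1) from the gene's mean over 10 libraries for the 31 tested members, with CKO libraries left of the black line and Flox libraries right of it, red above and blue below the mean, and colours ending at -1 and 1. Single libraries stand out for single genes (Thrsp in CKO 4, Far2 in Flox 2, Pnpla2 and Slc2a4 in CKO 1), while Pparg is mostly blue in CKO and red in Flox.

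Whether a member varied with the markers of a tissue was described by its correlation with the summed FPKM of genes outside the set, on the log2 scale over all 10 libraries. The sums were those of 15 muscle markers, of the sebaceous genes Krt79 and Elovl3 and of the fat cell genes Cfd and Car3, chosen for this use after the values were seen. With CKO and Flox libraries pooled, 5 of 93 relations passed on Pearson's r and 4 on Spearman's rho, 3 of them on both (permutation test, two-sided, each adjusted over the 93). As deviations from the genotype means, 0 of the 93 passed on r (exact permutation within genotype, adjusted over the 93). Far2 had r = 0.94 with Krt79 and Elovl3 (permutation p = 0.00023, adjusted 0.0107) and rho = 0.88 (permutation p = 0.00178, adjusted 0.0414). Without Flox replicates 1 and 2, r was 0.72 (exact permutation p = 0.0455), and within genotypes it was 0.93 (exact permutation p = 0.00229, adjusted 0.107). Gpd1 passed with the same sum on rho alone, at 0.89 (permutation p = 0.00100, adjusted 0.0414). Its r was 0.77 (permutation p = 0.00978, adjusted 0.0845), 0.74 without Flox replicates 1 and 2 (exact permutation p = 0.0334) and 0.67 within genotypes (exact permutation p = 0.0965, adjusted 0.364). Krt79, a keratin of the gland duct, and Elovl3, a gland elongase, summed to 45.1 to 83.96 FPKM in CKO libraries and 54.8 to 173 FPKM in Flox libraries.

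With Cfd and Car3, Adipoq had r = 0.87 (permutation p = 0.00224, adjusted 0.0417) and rho = 0.88 (permutation p = 0.00171, adjusted 0.0414). Mgst1 had r = 0.86 (permutation p = 0.00039, adjusted 0.0121) and rho = 0.89 (permutation p = 0.00113, adjusted 0.0414). Without Flox replicates 2 and 3 these were r = 0.76 for Adipoq (exact permutation p = 0.0280) and r = 0.86 for Mgst1 (exact permutation p = 0.00486). Within genotypes they were 0.86 for Adipoq (exact permutation p = 0.00944, adjusted 0.158) and 0.84 for Mgst1 (exact permutation p = 0.00438, adjusted 0.134). Mgst1 also had r = 0.77 with Krt79 and Elovl3, which did not pass (permutation p = 0.00892, adjusted 0.0845). Within genotypes that r was 0.74 (exact permutation p = 0.0315, adjusted 0.226), so Mgst1 was not tied to the fat cell sum alone. With the muscle sum, Slc2a4 had r = 0.97 (permutation p = 7.00e-05, adjusted 0.00651) and rho = 0.83 (permutation p = 0.00451, adjusted 0.0746), and r = 0.80 without CKO replicates 1 and 4 (exact permutation p = 0.0158). Within genotypes r was 0.96 for Slc2a4 (exact permutation p = 0.00153, adjusted 0.107). Soat1 had r = -0.86 with the muscle sum (permutation p = 0.00116, adjusted 0.0270) and rho = -0.83 (permutation p = 0.00481, adjusted 0.0746). That relation was weaker without CKO replicates 1 and 4, at r = -0.55 (exact permutation p = 0.172). Within genotypes r was -0.80 for Soat1 (exact permutation p = 0.0192, adjusted 0.192). The part of muscle in the levels of the members was not tested.

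**Figure D5:**
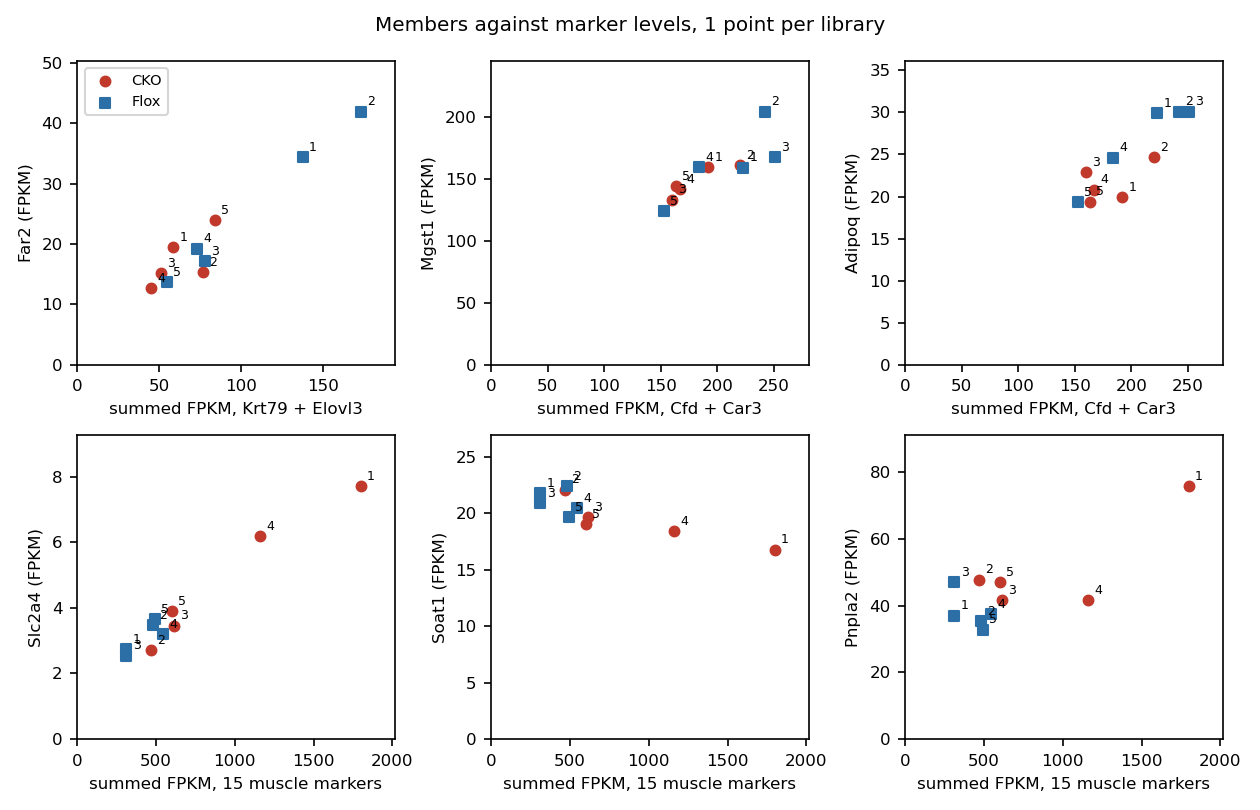
FPKM of Far2, Mgst1, Adipoq, Slc2a4, Soat1 and Pnpla2 against summed FPKM of marker genes outside the set, 1 point per library, numbered by replicate, with CKO as circles and Flox as squares and both axes from 0. Far2 follows Krt79 and Elovl3 with Flox 1 and 2 at the top right, Slc2a4 follows the muscle sum with CKO 1 and 4 at the top right, and Pnpla2 is high in CKO 1 but not in CKO 4.

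Genes of the same pathways outside the set held no gene that passed, in any of the lists. Of 29 symbols listed for other fat cell genes, 28 were in the table and 25 tested, with a median of -0.077 and 15 negative values. The groups did not overlap for 2 of the 28, beside 4.23% of all genes tested. These were Trarg1, a partner of the glucose transporter of Slc2a4, and Acvr1c, too low to test. Trarg1 spanned 1.34 to 3.42 FPKM in CKO and 3.67 to 5.04 FPKM in Flox (log2 fold change -0.65, SE 0.16, limma adjusted p = 0.135). Acvr1c spanned 0.20 to 0.24 FPKM in CKO and 0.25 to 0.33 FPKM in Flox. Lgals12, a galectin of fat droplets, had -0.36 (SE 0.11). The fat cell and stress factor Cebpb had 0.34 (SE 0.085), at 86.3 ± 8.0 FPKM in CKO and 67.9 ± 7.55 FPKM in Flox. Of 21 tested genes of SREBP and sterol synthesis, 17 were negative, with a median of -0.12. The lowest p values were those of Idi1, Msmo1 and Sc5d, at -0.35 (SE 0.13), -0.43 (SE 0.17) and -0.25 (SE 0.11).

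Of 18 tested genes of fatty acid oxidation, 10 were positive, with a median of 0.021. Pdk4, a kinase that turns cells from glucose to fat, was at 35.7 FPKM in CKO replicate 1, 3.97 to 9.05 FPKM in the other CKO libraries and 2.38 to 3.77 FPKM in Flox libraries (log2 fold change 1.19, SE 0.45, limma adjusted p = 0.260). Cpt2 and Hadha, enzymes of mitochondrial oxidation, had -0.15 (SE 0.055) and -0.11 (SE 0.047). Of 10 brown fat genes, 6 were tested, and 5 of these were positive with a median of 0.41. The groups did not overlap for 2 of the 10, Cox7a1 higher and Ebf2 lower in CKO, beside 4.23% of all genes tested. Ebf2, too low to test, spanned 0.43 to 0.61 FPKM in CKO and 0.66 to 0.96 FPKM in Flox. Cox7a1 was at 10.97 ± 4.46 FPKM in CKO and 5.39 ± 1.01 FPKM in Flox (log2 fold change 0.84, SE 0.23, limma adjusted p = 0.148), and Cox8b and Cpt1b had 0.68 (SE 0.23) and 0.48 (SE 0.22). These 3 are also expressed in skeletal muscle, and all 3 were highest in CKO replicate 1, as were the muscle markers. The part of muscle in their values was not tested. Of 13 tested muscle markers, 12 had an unadjusted p under 0.05 (limma), beside 15.1% of all genes tested, and 0 passed. Ucp1, which only brown and beige fat cells use, was near 0 as given above.

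Of the markers of other cells that express some of the members, 0 passed. The 10 macrophage markers, of cells that also express Plin2, Cd36, Lpl and Soat1, summed to 3585 to 4412 FPKM in CKO and 3670 to 4226 FPKM in Flox. The largest part was Lyz2, at a mean of 1837 FPKM. The log2 fold change was positive for 6 of the 10 and negative for 4. Adgre1 spanned 26.6 to 39.2 FPKM in CKO and 39.99 to 55.8 FPKM in Flox (log2 fold change -0.49, SE 0.11, limma adjusted p = 0.116). Mertk was higher in CKO (log2 fold change 0.23, SE 0.061, limma adjusted p = 0.147). The 10 endothelial markers, of cells that also express Fabp4 and Cd36, summed to 161 to 197 FPKM in CKO and 155 to 208 FPKM in Flox. The 15 hair follicle markers summed to 46.8 to 112.5 FPKM in CKO and 58.97 to 118 FPKM in Flox, nearly all of it from Tchh, and 10 of them were at 0 in at least 1 library. The 10 dermal fibroblast markers summed to 3884 to 6193 FPKM in CKO, lowest in CKO replicate 1, and 4975 to 6343 FPKM in Flox.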

How the data were processed

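Messenger RNA from whole skin was purified on oligo(dT) beads, made into libraries with random hexamers and sequenced on DNA nanoballs, single end, per the labels' protocols. The authors deposited 1 FPKM value per gene and library, with 2 decimals, per the file headers. The submitters' processing notes name HISAT, and nothing read here gives its version, the counter, the genome build or the annotation. No read counts were used, so depth is unknown.

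Groups and replicate numbers came from the labels. The planned fallback for FPKM was used in place of a count test. The whole table was fitted with limma-trend (limma 3.58.1, R 4.3.3) on log2(FPKM + 1), keeping genes that reached 1 FPKM in 5 or more libraries (13186 genes). P-values are two-sided and Benjamini-Hochberg adjusted over all of these, with a threshold of 0.05. Members, pathway lists, marker lists and tests were chosen with earlier results of these data known. Every member is named, and of each pathway list those that passed or else up to 3 of lowest p. Krt79, Elovl3, Awat1, Dgat2l6, Cfd, Car3, Ucp1, Ebf2, Acvr1c, Adgre1 and Mertk are named beside these, chosen after their values were seen. Correlations used Pearson's r and Spearman's rho with 100000 resamples. Motifs were searched in RefSeq promoters outside chr18 with Python 3.11.15. The fit was tested on simulated data. At most 0.569% of tested genes had equal values in a pair of libraries, so every library was counted as a separate sample. Alternatives were another pseudocount, no filter, quantile normalization, equal totals, array quality weights, a replicate block and each library left out.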

Additional observations from a re-analysis of the deposited data

Results flagged for a closer look

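In groups of 5 libraries, a library is given here when its gap to the next one takes more than 0.71 of the group's range, a limit that chance passes in about 1 of 20 groups. Of 70 groups of members, 6 passed it. Of all 100 groups of members and of pathway genes named for lowest p, 8 passed it. Thrsp was at 11.5 FPKM in CKO replicate 4 and at 4.01 to 4.10 FPKM in the other CKO libraries. Pnpla2 was at 75.8 FPKM in CKO replicate 1 and at 41.6 to 47.8 FPKM in the others. Plin5 was at 1.11 FPKM in the same library and at 0.40 to 0.59 FPKM in the others. Pdk4 was also highest there, at 35.7 FPKM, against 3.97 to 9.05 FPKM. Gpd1 was at 12.9 FPKM in CKO replicate 5 and at 10.4 to 10.8 FPKM in the others. In Flox replicate 3, Plin4 was at 16.99 FPKM and Lipe at 22.4 FPKM, against 10.8 to 12.3 FPKM and 17.5 to 18.8 FPKM in the other Flox libraries. Sc5d was at 24.6 FPKM in Flox replicate 2 and at 19.4 to 20.8 FPKM in the other Flox libraries. Skeletal muscle markers were highest in CKO replicate 1 too, and their part in the values of Pnpla2, Plin5 and Pdk4 was not tested.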

How the results depend on the processing

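Under the 16 alternatives none of the 31 tested members passed, and the lowest adjusted p among them was 0.0704 (Pparg, limma with array quality weights). Their median log2 fold change was -0.051 to 0.0099 without 1 library and -0.088 with array quality weights, which moved Retn to 0.13. The sign changed in at least 1 setting for 11 members, each within 0.083 of 0 in the fit reported, and was kept for 20. No member's value moved by more than its residual SD. The counts of all genes called moved more. The 6 genes higher in CKO became 1 with no filter on low values, 2 with equal FPKM totals, 30 with array quality weights and 0 with the replicate number as a block (limma, 1911 at an unadjusted p under 0.05). The 8 lower became 2 with no filter, 60 with array quality weights and 0 with the replicate block. Without 1 library the counts were 0 to 11 higher and 0 to 15 lower, both highest without CKO replicate 1, and both 0 without Flox replicate 1, 2, 3 or 5 (limma, 1488 to 1818 at an unadjusted p under 0.05). Without CKO replicates 2, 3, 4 and 5 and Flox replicate 4 they were 8 and 1, 1 and 4, 1 and 2, 1 and 4, and 4 and 1. The causes of these shifts were not tested. The replicate numbers were not used as pairs in the fit reported. Same-numbered deviations correlated by -0.21 to 0.21, and not every sample correlated best with its own number. These values cannot exclude a pairing with a weak effect. The 5 Pearson correlations passed as well with a pseudocount of 0.1 and with equal totals, but none did as deviations from the genotype means, all alternatives chosen after the data were seen. With FPKM alone, differences of genes near 0 such as Adrb3 could not be resolved. The planned tests on counts were not run, since the table holds FPKM.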
